A study of Lens culinaris with 50 samples.

Results

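In developing lentil seeds, 100 genes were chosen whose transcripts were at the zygote stage more abundant in the embryo than in the seed coat, and more abundant in the seed coat than in the embryo at maturity. They are called here the genes moving from embryo to seed coat, which names the tissue with the higher level and not a transfer of RNA or of cells. The choice used 8 of 50 libraries, the embryo and seed coat at the zygote and mature stages. A gene needed a mean of at least 100 normalized reads in the embryo at the zygote stage, and a mean of at least 100 normalized reads, and at least 20% of that embryo level, in the seed coat at maturity. The table holds 58243 genes, and this abundance rule was met by 11021 of them. For these the log2 ratio of embryo over seed coat at the zygote stage and the log2 ratio of seed coat over embryo at maturity were computed, each mean raised by 10, and the genes were ranked by the smaller of the ratios. Both ratios were above 0 for 2475 genes and over 2-fold for 230 genes, and the first 100 in this rank were taken. All 100 were among the 29440 genes abundant enough to be tested.

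The plants were lentil (Lens culinaris) of the cultivar CDC Gold, grown at 22 °C in 16 h of light and at 20 °C in 8 h of dark, and flowers were emasculated and pollinated by hand. Embryo, seed coat and intact whole seed were taken at 8 times: zygote, quadrant, globular and heart, then torpedo, early bent and late bent, and last mature. Ovules that had not been fertilized were a further group. Each of these 25 groups had 2 libraries, and the labels name no mutant and no treatment beyond pollination. The embryo was dissected out under a microscope in 4.8% sucrose with 0.1% RNAlater, and what remained of the seed was the seed coat sample. The labels do not say where the endosperm went, and the seed coat sample may hold some of it. Nor do they say whether the 2 libraries of a group came from separate plants. A p-value thus sets a difference only against the spread between libraries of a group, pooled over all groups, which may be technical.

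The seed coat grows from the integuments of the ovule and is maternal tissue, whereas the embryo grows from the fertilized egg. In legumes the seed coat carries the vascular supply of the seed and releases sugars and amino acids to the embryo while it fills. Later it hardens into the barrier that sets water uptake and protects the dry seed. The embryo in turn passes from cell division and patterning to the storage of protein and starch and then to drying. The files do not pair the gene identifiers with names or functions, so no role is given to any of the 100 genes, and the identity of the tissues could not be checked against known marker genes.

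Between 13019472 and 35634980 reads per library were assigned to genes (median 23945567). In 5 libraries, replicate 2 of whole seed at globular, of seed coat at torpedo, early bent and maturity, and of embryo at maturity, few genes were at 0 compared with the other replicate of the group. Choosing the genes again without those of them that the rule used gave 94 of the same 100 genes. A group in which both libraries had few genes at 0 escapes this comparison of replicates. In the unfertilized ovule 18.16% and 21.64% of genes were at 0, against 38.99% and 38.74% in the zygote whole seed. In the seed coat 42.56% and 46.19% were at 0 at quadrant and 30.32% and 41.12% at late bent. Its replicate 1 had 30.28% at torpedo and 29.87% at early bent, where that of the embryo had 55.03% and 46.48%. Whether this bears on the seed coat or ovule results was not tested. In the bulk tissue measured here, fewer cells of a type and less RNA per cell cannot be told apart. Levels are given as normalized reads, which are read numbers divided by 1 factor per library and not by gene length, so they are compared for the same gene between samples. Sums over genes, and the order of genes by level, also carry gene length.

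The scores that chose the genes ran from 5.33 for the first gene to 1.52 for the last. The first, Lcu.2RBY.4g043570, had 716 and 809 normalized reads in the 2 embryo libraries at the zygote stage and 4.08 and 5.26 in the seed coat. At maturity it had 4.99 and 10.1 in the embryo and 901 and 490.2 in the seed coat. At both ends of development, each library of the higher tissue was thus far above each library of the lower one. Lcu.2RBY.5g054180, the second, had 3096 and 3475 against 30.3 and 44 at the zygote stage and 15 and 20.2 against 705 and 626 at maturity, embryo before seed coat in each pair. Lcu.2RBY.2g062830, the last gene taken, had a score of 1.52, and Lcu.2RBY.1g041510, the first left out, had 1.49. Lcu.2RBY.2g062830 had 70.8 and 173 in the embryo and 21.6 and 50.6 in the seed coat at the zygote stage. The values of Lcu.2RBY.1g041510 were 106 and 112 and 32.7 and 32.2, so the genes on either side of the limit are alike in this respect. The last 5 genes taken had scores of 1.55 to 1.52 and the next 5 had 1.49 to 1.46. These values fixed the choice and are given as a description.

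Summed over the 100 genes, their transcripts made up 0.696% and 0.797% of all normalized reads in the 2 embryo libraries at the zygote stage and 0.182% and 0.174% in the seed coat. At maturity they made up 0.0626% and 0.0565% in the embryo and 1.56% and 1.19% in the seed coat. A few genes hold much of these sums. In the mature seed coat Lcu.2RBY.3g042920, Lcu.2RBY.6g010240 and Lcu.2RBY.1g038310 together held 40.4% of the 100 genes' sum. In the embryo at the zygote stage Lcu.2RBY.4g081000, Lcu.2RBY.3g014190 and Lcu.2RBY.6g010240 held 31.4%. The seed coat at maturity was above the embryo at the zygote stage for 56 of the 100 genes, and at least 10 times above it for 14. The share of all genes that met the abundance rule was not computed for these counts. The sums and counts come from the libraries that chose the genes, so the choice fixed them in part, and they are a description.

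Between the stages used in the choice, the level of these transcripts became lower in the embryo and higher in the seed coat in several steps. The median over the 100 genes in the embryo was 567 normalized reads at the zygote stage and 635 at quadrant. It was then 291 at globular, 192 at heart, 144 at torpedo, 78.0 at early bent, 69.2 at late bent and 43.1 at maturity. In the seed coat the median stayed between 78.4 and 108 from zygote to heart, was 253 at torpedo and 264 at early bent, and reached 668 at late bent and 1075 at maturity. Over all tested genes the median moved much less, between 63.1 and 92.9 in the embryo and between 86.3 and 109 in the seed coat. The 2 libraries of a group gave similar medians. The pair farthest apart was the quadrant embryo with 733 and 536, followed by the heart embryo with 212 and 160.3. The medians of the tissues were nearest to each other at heart and torpedo, and their order changed between these stages.

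**Figure D1:**
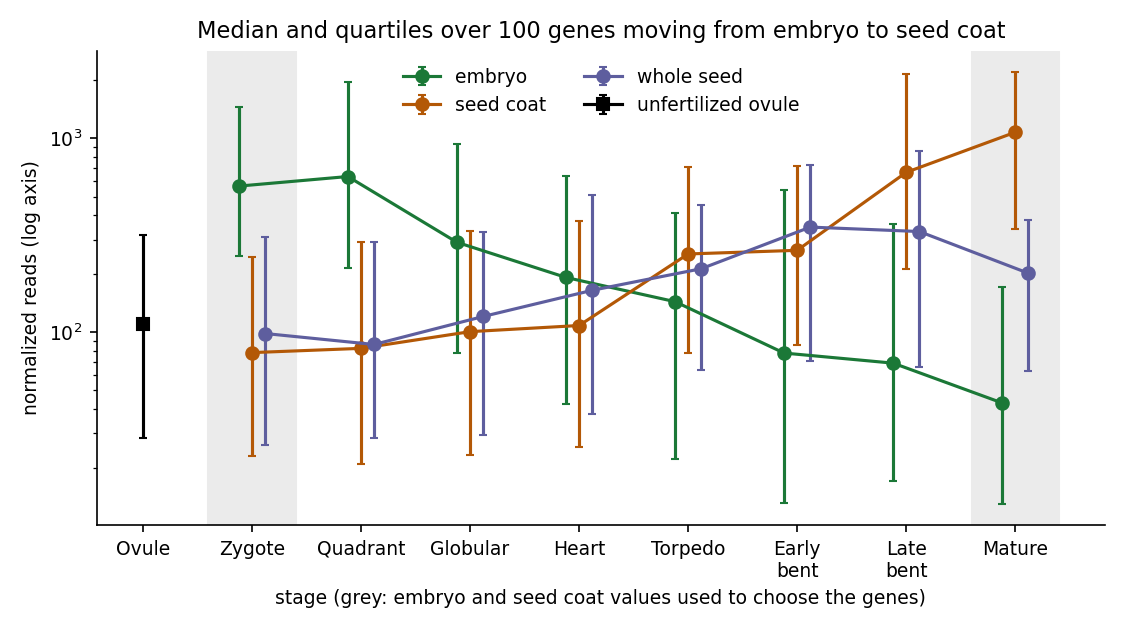
Median (points) and quartiles (bars) of the 100 genes in normalized reads on a log axis, at each stage in embryo, seed coat and whole seed and in the unfertilized ovule, with group means of 2 libraries per gene. The embryo median goes from 635 at quadrant to 69.2 at late bent while the seed coat median goes from 82.5 to 668. Grey bands mark the stages whose embryo and seed coat values chose the genes.

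At quadrant, the stage after the zygote, 80 of the 100 genes were higher in the embryo and 3 in the seed coat, by limma's test at an adjusted p under 0.05 and at least 2-fold. The same test called 16.5% of all tested genes for the embryo and 20.6% for the seed coat. The libraries of quadrant to late bent took no part in the choice of the genes, although a stage next to one of the rule can carry over its difference. The 3 seed coat genes were Lcu.2RBY.5g065590, Lcu.2RBY.1g049030 and Lcu.2RBY.6g003510, the last named after its values were seen. The median log2 difference of embryo over seed coat was 2.52 over the 100 genes and -0.22 over all tested genes. Among the genes with the largest values, Lcu.2RBY.4g043570 had 1211 and 1600.2 normalized reads in the embryo and 3.72 and 1.5 in the seed coat (log2 difference 8.66, SE 0.60, adjusted p = 5.08e-13). Lcu.2RBY.6g068850 had 5243 and 5779.7 in the embryo and 139 and 87.2 in the seed coat (5.63, SE 0.40, adjusted p = 1.02e-12). In both genes each embryo library was far above each seed coat library.

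The embryo calls thinned out stage by stage. At globular 51 genes were called for the embryo, where 12.1% of all tested genes were, and 5 for the seed coat, where 15% were. At heart the counts were 34 for the embryo and 19 for the seed coat, beside 11.1% and 16% of all tested genes. The median log2 difference was 1.39 at globular and 0.78 at heart, against 0.00 and -0.06 over all tested genes. The seed coat count at heart depended in part on 1 library, replicate 2 of the heart embryo, without which it was lower. The 5 genes called for the seed coat at globular were Lcu.2RBY.7g002860, Lcu.2RBY.5g065590, Lcu.2RBY.1g049030, Lcu.2RBY.5g073730 and Lcu.2RBY.1g038980, the first and the last 2 of them named after their values were seen. Their number was 3 without replicate 2 of the globular embryo and 2 without replicate 1 of the globular seed coat. Lcu.2RBY.5g073730 had 3607 and 2519.6 normalized reads in the embryo at quadrant and 273 and 136 at globular, while the seed coat had 997 and 1172 and then 1408 and 1285. The tissues changed order as both globular embryo libraries lay far below the quadrant ones, while the seed coat libraries were slightly higher.

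At torpedo 22 genes were called for the embryo and 42 for the seed coat, beside 13.8% and 27.6% of all tested genes. At early bent the counts were 15 and 44, beside 13.8% and 27.7%. Of the calls at torpedo 34.4% were for the embryo, near the 33.3% over all tested genes, so the split of calls at this stage was close to that of all tested genes. The percent called for the embryo at early bent was near that of all tested genes as well. Among the 11021 genes that met the abundance rule, fewer were called for the seed coat than among all tested genes. Of them 12.3% were called for the embryo and 17% for the seed coat at torpedo, and 13% and 18.6% at early bent. The median log2 difference of the 100 genes was -0.82 at torpedo and -0.995 at early bent. It was -0.49 and -0.46 over all tested genes, and -0.07 and -0.06 over those that met the abundance rule. Without the 5 libraries with few genes at 0 the counts were 17 and 32 at torpedo and 12 and 42 at early bent. Under quantile scaling the share of the embryo among all called genes was 54.5% in place of 33.3% at torpedo and 54.3% in place of 33.2% at early bent, so for all genes the direction of the excess depended on the scaling. This scaling moved the median log2 difference of all tested genes by 0.57 at torpedo. Among the 100 genes the share was 35.6% in place of 34.4% at torpedo and 32.2% in place of 25.4% at early bent, and their median log2 difference was -0.28 at torpedo and -0.51 at early bent.

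At late bent 76 genes were called for the seed coat, where 23.1% of all tested genes were, and 2 for the embryo, where 17.7% were. The median log2 difference was -2.77 over the 100 genes and -0.28 over all tested genes. The embryo genes were Lcu.2RBY.1g037640 and Lcu.2RBY.6g069340. Their number was 0 without replicate 1 of the late bent embryo and 1 without replicate 1 of the late bent seed coat. Quantile scaling gave 3 genes for the embryo and 70 for the seed coat, while it moved the embryo's share of all calls from 43.4% to 53.9%.

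**Figure D2:**
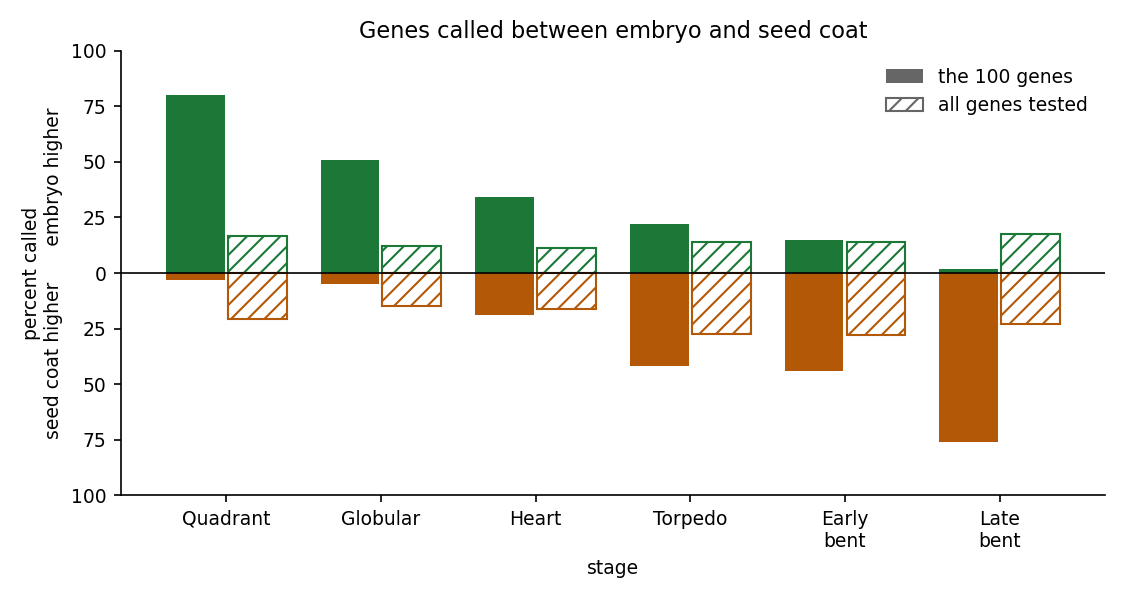
Percent of genes called by limma (adjusted p under 0.05 and at least 2-fold) at each of the 6 stages not used in the choice, embryo calls upward and seed coat calls downward. Filled bars are the 100 genes and hatched bars all 29440 tested genes. The filled bars run from 80 up and 3 down at quadrant to 2 up and 76 down at late bent.

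Of the 100 genes, 60 were called for the embryo at quadrant and for the seed coat at late bent, beside 2.09% of all tested genes. Over the 6 stages 87 genes were called for the embryo at least once, beside 36% of all tested genes, and 83 for the seed coat, beside 50.9%. Calls in both directions were found for 70 genes, beside 10.8%. Only 1 of these had a seed coat call before an embryo call, Lcu.2RBY.6g003510, which was singled out after its values were seen. The choice put the embryo higher at the zygote stage and the seed coat higher at maturity, which favours an embryo call first. None of the 100 lacked a call at all 6 stages. The share of all tested genes was not computed for these last counts, which are a description.

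The genes did not change sides at 1 common stage. The seed coat mean was above the embryo mean from quadrant onward for 2 genes, from globular for 14, from heart for 16, from torpedo for 25, from early bent for 6 and from late bent for 30. For the other 7 it was so at maturity alone. As the choice fixed the sign at both ends, an odd number of sign changes was certain, and it was 1 in 88 genes and 3 in 12 genes. The seed coat itself reached 50% of its mature level at different times: 13 genes were there at the zygote stage, 30 came there at late bent and 26 at maturity. In the seed coat 60 genes were highest at maturity and 28 at late bent. In the embryo 31 genes were highest at the zygote stage and 48 at quadrant. The choice required high values in the mature seed coat and the zygote embryo, so it fixed these counts in part, and they are a description.

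**Figure D3:**
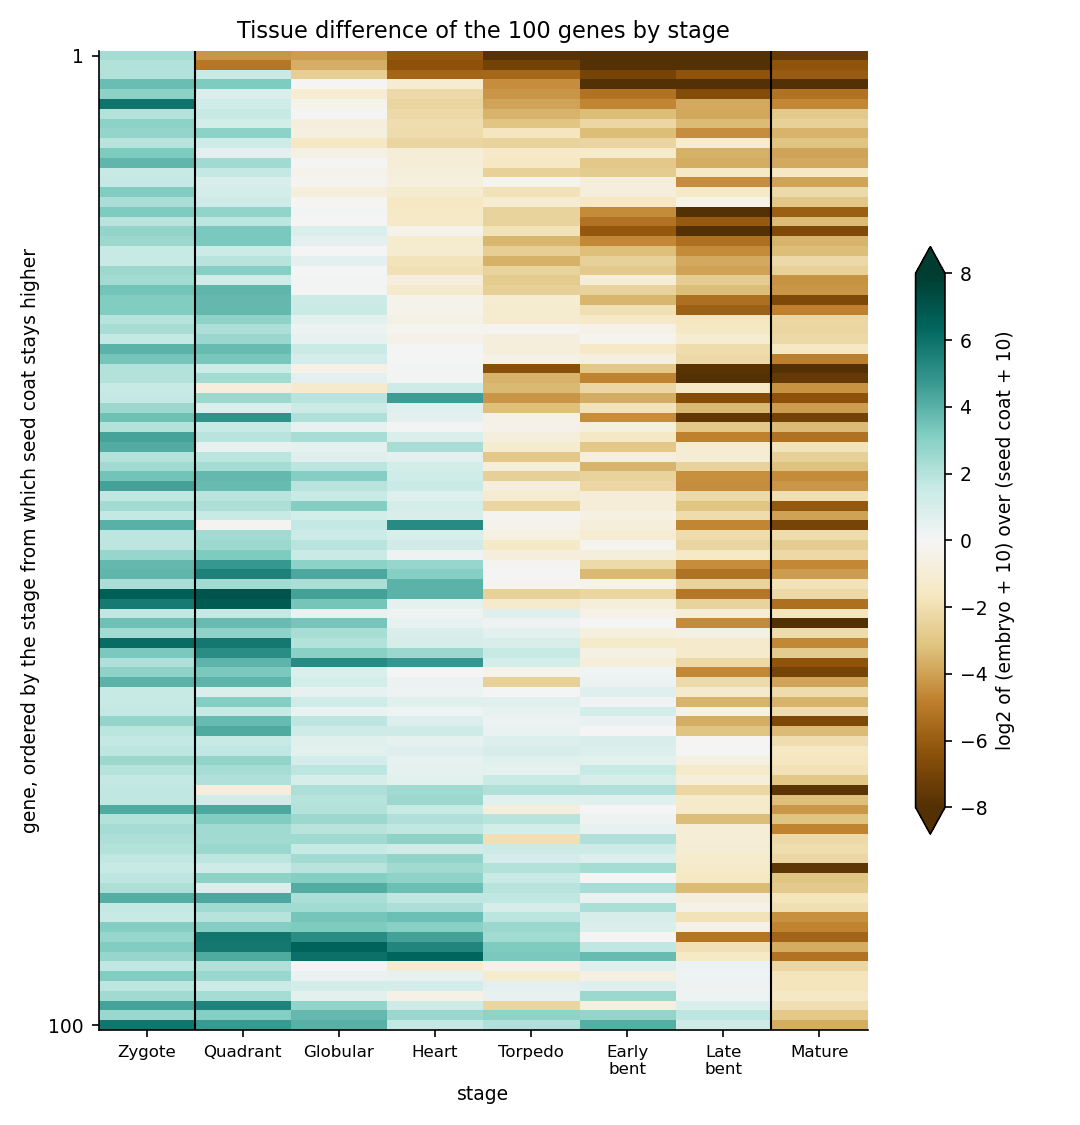
Log2 of embryo over seed coat, each group mean raised by 10 normalized reads, for the 100 genes (1 line each) at 8 stages. Green is higher in embryo and brown higher in seed coat, colours end at 8 either way, and the outer columns beyond the black lines chose the genes. Ordered by the stage from which the seed coat stays higher, the change of sides runs from quadrant in 2 genes to maturity in 7.

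In some genes the embryo level was already low at quadrant. The zygote level had to be high for a gene to be chosen, which favours lower values at the next stage, so the following counts are a description. The embryo mean at quadrant was under 50% of the zygote mean in 23 genes and under 10% in 7, while it was above the zygote mean in 62 genes and at least 2 times above it in 14. Lcu.2RBY.6g066220 had 1336 and 1050.4 normalized reads in the embryo at the zygote stage, 43.1 and 37.5 at quadrant and 6.92 and 10.8 at torpedo. Its seed coat values were 6.2 and 15.8 at quadrant, 142 and 65.9 at heart, 545 and 335 at early bent, then 1409 and 938 at late bent. The tissues overlapped at globular, with 15.4 and 35.3 in the embryo and 33.6 and 37.9 in the seed coat. The gene was called for the embryo at quadrant (log2 difference 1.91, SE 0.78, adjusted p = 0.0452) and for the seed coat from heart on (-3.41, SE 0.78, adjusted p = 0.000757 at heart). Lcu.2RBY.3g019910 had 77.1 and 115 in the embryo at quadrant and 3.54 and 1.1 at globular, and was at 0 in both heart embryo libraries. In its seed coat the values were 1.24 and 1.5 at quadrant, 105.4 and 454 at torpedo, 1989 and 5704 at early bent, then 30959 and 31039.8 at late bent. Every seed coat library from heart on was above every embryo library of its stage.

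Among the first 10 genes by rank, several followed the same order with other timing and others did not. Lcu.2RBY.7g036890 had 208 and 352 normalized reads in the embryo at quadrant, 31.9 and 22.1 at globular and 2.82 and 1.85 at late bent, against 44.7 and 42.1, 33.6 and 22.3 and 177 and 122 in the seed coat. Lcu.2RBY.4g070680 had 307 and 73.2 in the embryo at quadrant and 1.34 and 0 at early bent, and in the seed coat 23.7 and 60.2 at early bent, then 320.5 and 439 at late bent. Lcu.2RBY.1g073510 had 33 and 30.9 in the seed coat at heart, 169 and 166 at torpedo and 1705 and 924 at late bent, while its embryo libraries at early bent stood at 175 and 15.2. In these 3 genes the late bent seed coat libraries were all above the late bent embryo libraries. Lcu.2RBY.2g000130 had 17 and 108 in the seed coat at torpedo and 13.5 and 12.4 at early bent. It then had 67.3 and 99.6 at late bent and 973 and 370.4 at maturity. No seed coat call was made for it at any of the 6 stages. The seed coat values of Lcu.2RBY.1g074700 were 24.3 and 169 at torpedo, where it was called for the seed coat (log2 difference -2.82, SE 0.84, adjusted p = 0.00638). They were 1.69 and 0.955 at early bent, under the embryo's 5.38 and 3.38. At late bent they were 44 and 67 and at maturity 169 and 167. In both genes the torpedo seed coat libraries were far apart, and the sign of the tissue difference changed 3 times over the 8 stages. Lcu.2RBY.5g054180 was called for the embryo up to torpedo (log2 difference 1.04, SE 0.41, adjusted p = 0.0367) and for the seed coat at early bent (-1.41, SE 0.41, adjusted p = 0.00591) and late bent.

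In a pair of genes the seed coat was high from quadrant on. Lcu.2RBY.1g049030 and Lcu.2RBY.5g065590 were called for the seed coat at all 6 stages, as were 4.67% of all tested genes, so that only the zygote values placed them among the 100. Lcu.2RBY.5g065590 had 168 and 211 normalized reads in the embryo and 13.4 and 46.7 in the seed coat at the zygote stage. At quadrant it had 23.5 and 12.5 in the embryo and 149 and 916 in the seed coat (log2 difference -4.35, SE 1.02, adjusted p = 0.000784). At late bent its seed coat values were 80161 and 29647 and its embryo values 67.6 and 37, and the mature seed coat was lower, with 4184 and 3633. The seed coat libraries were above the embryo libraries at each stage after the zygote, but they were far apart at torpedo, with 8707 and 264. Lcu.2RBY.1g049030 likewise had 3808 and 135 in the torpedo seed coat and 5.76 and 2.93 in the torpedo embryo. Its seed coat values at late bent were 8676 and 8725, and at maturity 1043 and 857.

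Other genes changed sides near torpedo. Lcu.2RBY.6g068850 had 5243 and 5779.7 normalized reads in the embryo at quadrant, 2257 and 2068 at globular, 968 and 644 at heart, 188 and 185 at torpedo and 50.7 and 38.8 at late bent. Its seed coat values were 63.7 and 118 at heart, 236 and 139 at torpedo, 711 and 1073 at early bent, then 1623 and 2637 at late bent. The tissues overlapped at torpedo (log2 difference 0.04, SE 0.40, adjusted p = 0.941) and were apart in opposite directions at heart (3.17, SE 0.40, adjusted p = 1.3e-07) and at early bent (-3.61, SE 0.40, adjusted p = 9.47e-09). Lcu.2RBY.7g049540 had 139.9 and 723 in the quadrant embryo and was at 0 in all 4 embryo libraries of torpedo and early bent. Its seed coat held 2.21 and 5.78 at torpedo, 138 and 291 at early bent, then 2143 and 2745 at late bent. The embryo thus reached 0 a stage before the seed coat values rose above 100.

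Some genes were called for the embryo up to torpedo or late bent, though their embryo level did not always stay high. Lcu.2RBY.1g037640 and Lcu.2RBY.6g069340 were called for the embryo at all 6 stages, as were 2.42% of all tested genes. Lcu.2RBY.1g037640 was not steady in the embryo: it had 1486 and 1536 normalized reads at the zygote stage, 84 and 155 at heart, 1881 and 2103 at early bent and 165 and 145 at maturity. Its seed coat values were 22.9 and 19.5 at quadrant and 95.6 and 116 at early bent, then 526 and 799.7 at late bent and 2342 and 1898 at maturity. In Lcu.2RBY.6g069340 the embryo values were between 1314 and 2653 from globular to early bent. They were 1538 and 479 at late bent, and those at maturity were 16.6 and 21.9. Its seed coat differed less, with 268 and 343 at heart and 253 and 169.9 at maturity, so the order at maturity came with a drop in the embryo. Lcu.2RBY.4g076920 was called for the embryo up to torpedo and for the seed coat at late bent alone. It had 116 and 299.9 in the seed coat at early bent and 3029.9 and 5674 at late bent, against 258 and 169 and 149 and 79.5 in the embryo.

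Lcu.2RBY.6g003510, the gene with the seed coat call first, went back and forth. It had 169.8 and 248 normalized reads in the embryo at the zygote stage, 1.31 and 0 at quadrant and 204 and 184 at early bent, and 64.8 and 31.4 at late bent. The seed coat had 62.4 and 52.6 at the zygote stage, 11.2 and 5.26 at quadrant, 25.4 and 49.7 at early bent, then 209 and 344 at late bent. Its quadrant call for the seed coat (log2 difference -2.52, SE 0.93, adjusted p = 0.0272) therefore sits on low values in both tissues.

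**Figure D4:**
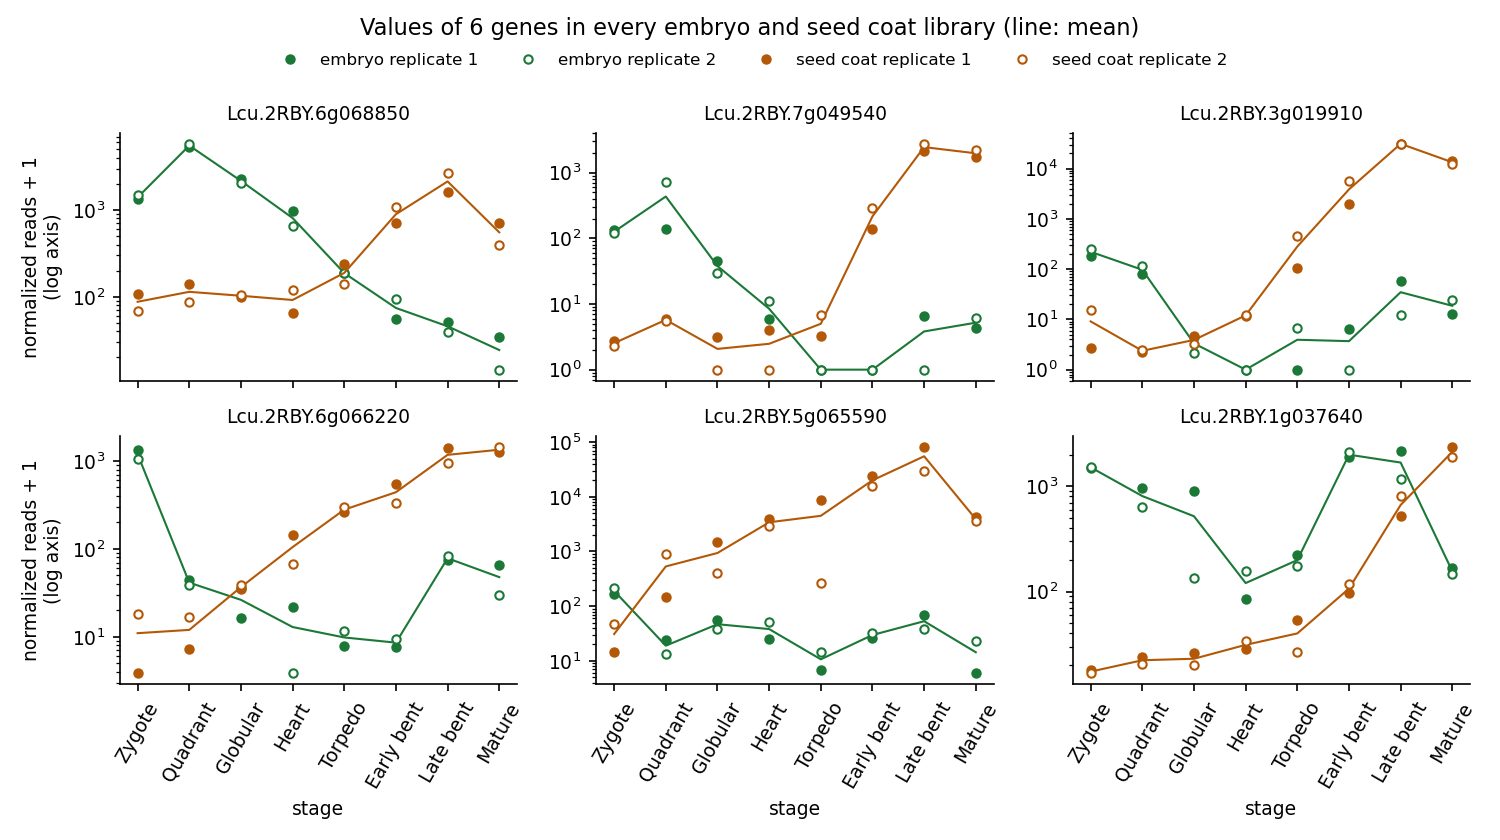
Normalized reads plus 1 (log axis) of 6 of the genes in every embryo (green) and seed coat (brown) library at 8 stages, filled for replicate 1 and open for replicate 2, lines through the means. The lines cross between quadrant and globular in Lcu.2RBY.6g066220, meet at torpedo in Lcu.2RBY.6g068850 and after late bent in Lcu.2RBY.1g037640. In Lcu.2RBY.5g065590 the torpedo seed coat libraries lie far apart.

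From quadrant to late bent, the first and last of the stages outside the choice, 76 of the 100 genes fell in the embryo and 3 rose, beside 21.8% and 23% of all tested genes. In the seed coat 72 rose and 2 fell, beside 21.5% and 17%. The median log2 change was -3.17 in the embryo and 2.56 in the seed coat, against 0.00 and 0.33 over all tested genes. TMM scaling moved the share of rises among all genes called in the seed coat from 55.9% to 44.5% and gave 97.2% in place of 97.3% among the 100 genes. Both changes, a fall in the embryo and a rise in the seed coat, passed the test in 52 genes, beside 2.33% of all tested genes. In 22 genes the fall in the embryo passed and no change in the seed coat did. In 17 the rise in the seed coat passed and no change in the embryo did, and in 4 neither passed. For the counts of 22, 17 and 4 the share of all tested genes was not computed.

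Some genes changed in the same direction in both tissues from quadrant to late bent: 3 rose in both and 2 fell in both. The share of all tested genes was not computed for these counts. The choice favours a fall in the embryo and a rise in the seed coat, so the counts are a description. Lcu.2RBY.6g061410, Lcu.2RBY.6g003510 and Lcu.2RBY.2g062830 rose in both. Lcu.2RBY.6g061410 had 104.6 and 241 normalized reads in the embryo at quadrant and 1617 and 1288 at late bent, and 19.8 and 11.3 and then 2416 and 1724 in the seed coat. Lcu.2RBY.1g038980 and Lcu.2RBY.5g040160 fell in both. Lcu.2RBY.5g040160 had 1978 and 855 in the embryo at quadrant and 95.8 and 64.7 at late bent, and 716 and 488 and then 207 and 231 in the seed coat. The fall was larger in the embryo (log2 change -4.03, SE 0.34, adjusted p = 1.86e-11) than in the seed coat (-1.43, SE 0.34, adjusted p = 0.00085). The number of genes that fell in the seed coat was 1 when any 1 of its 4 quadrant and late bent libraries was left out. These genes, other than Lcu.2RBY.2g062830, were named after their values were seen.

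**Figure D5:**
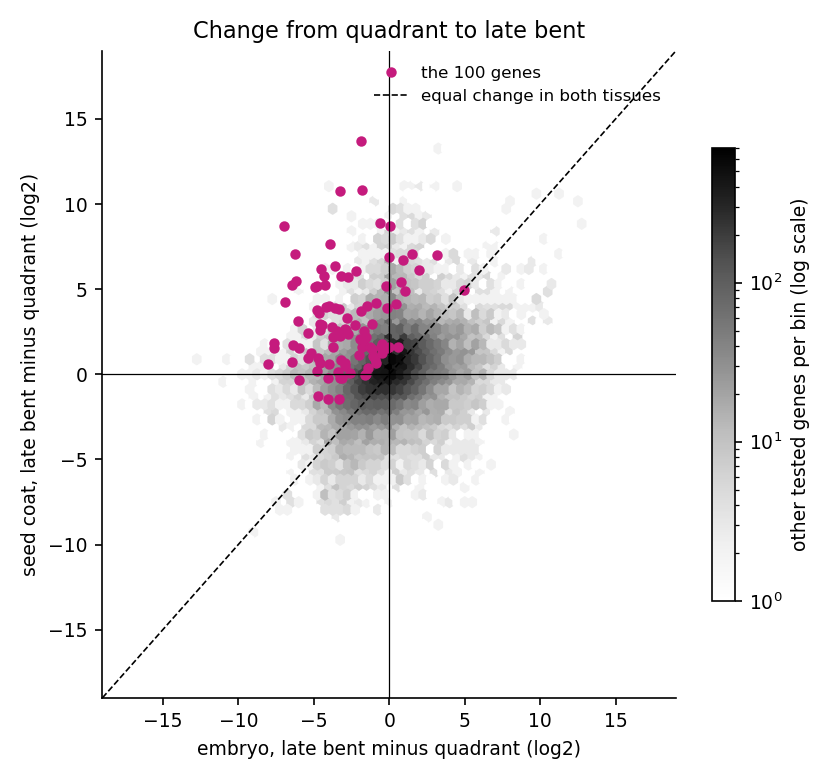
Log2 change from quadrant to late bent in the embryo (horizontal) and in the seed coat (vertical), the 100 genes as pink points over all other tested genes in grey bins (counts on a log scale). The dashed line marks an equal change in both tissues. All 100 genes lie above this line, and 52 of them passed the test both for a fall in the embryo and for a rise in the seed coat.

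The difference between the tissues in this change was tested as an interaction. The seed coat gained on the embryo in 92 of the 100 genes, beside 21% of all tested genes, and the embryo gained on the seed coat in 0, beside 18.5%. The count of 0 came from limma, and it was also 0 at an unadjusted p under 0.05, with edgeR and with DESeq2. The median interaction was 5.54 on the log2 scale over the 100 genes and 0.25 over all tested genes. With genes whose group was at 0 set to a floor of 3 counts per library it was 5.50. The interaction is the difference of the changes in the embryo and in the seed coat and uses the same libraries, so it is no second count of them. Lcu.2RBY.7g049540 had an interaction of 15.68 (SE 1.01, adjusted p = 1.39e-13), made of a change of -6.95 in the embryo and 8.73 in the seed coat. Lcu.2RBY.3g019910 had 15.53 (SE 1.30, adjusted p = 7.21e-11), nearly all of it a rise of 13.68 in the seed coat, whereas its embryo change of -1.85 did not pass. Lcu.2RBY.6g068850 had 11.14 (SE 0.57, adjusted p = 1.06e-15), with -6.92 in the embryo and 4.22 in the seed coat. The same interaction can thus be made mainly by the seed coat or by both tissues.

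Further genes with large interactions had seed coat levels that were far lower up to heart than at late bent. Lcu.2RBY.4g054810 had 4.72 and 11.4 normalized reads in the heart seed coat, 439 and 1151 at early bent, then 7836 and 10586 at late bent, against 14.1 and 7.39 in the late bent embryo. Lcu.2RBY.1g038310 had 21.7 and 39.1 in the quadrant seed coat, 2216 and 12655 at torpedo and 56393 and 51845 at late bent. Unlike the genes above it kept a high embryo level, with 4463 and 6285 at quadrant, 1746 and 1336 at late bent and 6360.0 and 4456 at maturity. Lcu.2RBY.5g068760 had 161 and 158 in the seed coat at quadrant and 6981 and 7612 at late bent, and in the embryo 1029 and 740.4 and then 16.9 and 7.39. In each of these 3 genes every late bent seed coat library was above every late bent embryo library.

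The 8 genes whose interaction did not pass the test had values between 0.02 and 3.67. They were Lcu.2RBY.6g003510, Lcu.2RBY.1g049030, Lcu.2RBY.1g021280, Lcu.2RBY.4g051550, Lcu.2RBY.3g059490, Lcu.2RBY.2g010800, Lcu.2RBY.6g045510 and Lcu.2RBY.1g068540. In Lcu.2RBY.1g049030, with 3.67 and an adjusted p = 0.0824, the seed coat stood above the embryo already at quadrant. Without replicate 2 of the quadrant seed coat its value was 4.71 and passed. Lcu.2RBY.1g021280 had 11349.9 and 11486 normalized reads in the heart embryo and 2222 and 1823 in the heart seed coat, and an interaction of 2.13 (adjusted p = 0.0841).

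Agreement between the 2 libraries of a group was poorest in the torpedo seed coat, where 38 of the 100 genes differed more than 2-fold between replicates, and in the quadrant embryo, where 30 did. In the other embryo and seed coat groups it was at most 20. The share of all tested genes more than 2-fold apart was not computed. Over all genes with enough reads, the mean chi-square per gene between replicates was also largest in these groups. It was 291.7 in the torpedo seed coat and 212.8 in the quadrant embryo, so poor agreement there was not limited to the 100 genes. In the torpedo seed coat the libraries differed in both directions. Lcu.2RBY.3g042920 had 369 and 3226, while Lcu.2RBY.1g049030 had 3808 and 135, with replicate 1 first. Lcu.2RBY.1g023170, at rank 7, was erratic in the embryo. It had 112 and 266 normalized reads at the zygote stage, 0 and 0 at quadrant, 0 and 60.7 at globular, 682 and 7.16 at heart and 6.92 and 243 at torpedo. Its 2 libraries agreed at 0 at quadrant and late bent and were far apart at globular, heart and torpedo, so its call for the embryo at heart rests on 1 high library. Its interaction passed with limma and did not with edgeR, with DESeq2, or without replicate 1 of the quadrant seed coat.

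In the whole seed, which holds both tissues and was not used in the choice, the 100 genes were at a median of 98.4 normalized reads at the zygote stage, near the seed coat's 78.4 and below the embryo's 567. The median was 86.4 at quadrant, 120 at globular, 164 at heart, 212 at torpedo, 348 at early bent, 331 at late bent and 201 at maturity. At early bent it was above both the embryo's 78.0 and the seed coat's 264. At maturity it lay between the embryo's 43.1 and the seed coat's 1075. Between zygote and maturity 36 genes were higher at maturity and 13 at the zygote stage, beside 17.7% and 17.8% of all tested genes. The second count was 20 with TMM scaling, with 33 for maturity, and 8 without replicate 2 of the zygote or without replicate 1 of the mature whole seed. The median log2 change was 0.80 over the 100 genes and -0.02 over all tested genes.

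Values follow for the 5 of the 100 genes with the most normalized reads in the mature whole seed, an order that also carries gene length. Lcu.2RBY.1g038310 had 46.5 and 16.6 normalized reads in the zygote whole seed, 13267 and 11578 at late bent and 14743 and 3624 at maturity, and its zygote to mature change was 7.98 on the log2 scale (SE 0.68, adjusted p = 1.28e-10). Lcu.2RBY.3g042920 had 137 and 74.2 at the zygote stage and 7004 and 3596 at maturity (log2 change 5.62, SE 0.70, adjusted p = 1.23e-07). The mature libraries of both genes were all above the zygote libraries, though those of Lcu.2RBY.1g038310 were far apart. Lcu.2RBY.6g010240, Lcu.2RBY.4g081000 and Lcu.2RBY.3g030580 had 8409 and 5580.2, 4223 and 8395 and 4476 and 2046 at maturity, and each passed the test for a higher level than at the zygote stage. At heart, 3 of the 100 genes had both whole seed libraries at least 2-fold above every embryo and seed coat library. That is near the 2.44% of all tested genes, so it is no trait of the 100. At globular 0 of the 100 genes did, beside 2.48% of all tested genes. The 3 genes at heart were Lcu.2RBY.3g042920, Lcu.2RBY.5g068760 and Lcu.2RBY.1g074700. Lcu.2RBY.3g042920 had 1103 and 321 in the whole seed, 123 and 40.1 in the embryo and 95 and 59.4 in the seed coat.

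Before fertilization the 100 genes were at a median of 109.7 normalized reads in the unfertilized ovule, close to that of the zygote whole seed. Between ovule and zygote 5 genes were higher at the zygote stage and 8 in the ovule, beside 1.64% and 2.27% of all tested genes. The counts are small and moved with single libraries. With limma the first was 0 without replicate 2 of the zygote whole seed, and 1 or 2 without replicate 1 or 2 of the ovule. The second was 2 without either zygote library, and 1 or 0 without replicate 1 or 2 of the ovule. With TMM scaling the counts were 6 and 4 and with quantile scaling 8 and 9, so their order depends on the scaling. The genes higher at the zygote stage were Lcu.2RBY.6g069340, Lcu.2RBY.5g065590, Lcu.2RBY.1g049030, Lcu.2RBY.5g073730 and Lcu.2RBY.6g059910, the last 2 named after their values were seen. Lcu.2RBY.1g049030 had 0.567 and 1.6 in the ovule and 33.6 and 272 in the zygote whole seed. Of those higher in the ovule, Lcu.2RBY.3g042920 had 655 and 756 there and 137 and 74.2 in the zygote whole seed (log2 change -2.79, SE 0.70, adjusted p = 0.0182). In Lcu.2RBY.7g049540 the values were 24.4 and 24.8 and 2.24 and 2.28.

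For comparison, the rule was turned round to take 100 genes that began high in the seed coat and were high in the embryo at maturity. Of these 94 were called for the seed coat and 1 for the embryo at quadrant, and 86 for the embryo and 4 for the seed coat at late bent. At torpedo the turned set had 29 genes called for the embryo and 28 for the seed coat, where the genes moving from embryo to seed coat had 22 and 42. The difference between the sets was not tested, since both were chosen on the same libraries.

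Few of the 100 genes stand next to each other in the table. Lcu.2RBY.5g010030 and Lcu.2RBY.5g010040 are adjacent and had a Pearson correlation of 0.947 over the 50 libraries. Lcu.2RBY.2g000120 and Lcu.2RBY.2g000130 are adjacent with 0.553, and Lcu.2RBY.1g049010 and Lcu.2RBY.1g049030 are 2 steps apart with 0.75. The 2 values of a pair come from the same library, with its stage and depth. The first pair was named after its values were seen. Whether reads were split between similar copies of a gene was not tested.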

How the data were processed

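Messenger RNA was measured in 25 groups of lentil seed tissue with 2 libraries each. A kit for low RNA input was used for the libraries, per the labels' protocols. Per the submitters' processing notes, the tools included Trimmomatic, CASAVA, DESeq2 and featureCounts. Genome build and aligner, not given in the sources used here, remain unstated. The signal values deposited by the authors are read counts divided by 1 factor per library. All of them (100%) came out as whole reads, to within 0.001 reads. Libraries held 13019472 to 35634980 reads, and floors cover counting error only.

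Groups came from the labels. The 100 genes, the rule for named genes and the comparisons were chosen with earlier results of these data known. The test was limma 3.58.1 (R 4.3.3, trend and robust) on log2(normalized reads + 1) with 25 group coefficients and 25 residual degrees of freedom. It ran on the 29440 genes that reached 10 normalized reads in 2 or more libraries, with Benjamini-Hochberg adjustment over all of them. Fold changes of genes with few reads are understated on this scale. A gene was called at an adjusted p under 0.05 and at least 2-fold. The groups contrasted in tests lay outside the choice, but the residual spread was pooled over all 50 libraries, including the 8 of the choice. On simulated data for the heart comparison, 95% of 200 genes changed 4-fold among 29440 were recovered, and 18 unchanged genes were called. No pair of replicates agreed within sampling noise (mean chi-square per gene at least 14.97).

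Named were the first 10 genes by rank, the 10 with the largest interaction, those called for 1 tissue at all 6 stages, the 5 genes on each side of the limit, and the 5 highest in the mature whole seed. Alternatives were pseudocounts of 0.5 and 8, no filter or 50 normalized reads, TMM and quantile scaling, a replicate block, no fold required, each library left out, and edgeR 4.0.16 and DESeq2 1.42.0 on the recovered reads. On those reads edgeR called 11372 genes at torpedo and 10669 at late bent. The alternative without the 5 libraries with few genes at 0, those with under 2 in 3 of the share of genes at 0 of the other replicate, was chosen after seeing the data. No gene annotation was used here.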

Additional observations from a re-analysis of the deposited data

Results flagged for a closer look

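The change from quadrant to late bent differed between seed coat and embryo by the interaction test in 92 of the 100 genes, with the seed coat gaining in each. These stages took no part in choosing the genes, but the stages on either side of them did. The 10 genes with the largest interactions, on the log2 scale, were the following. Lcu.2RBY.7g049540 had 15.68, Lcu.2RBY.3g019910 had 15.53 and Lcu.2RBY.4g054810 had 13.97. Lcu.2RBY.1g049010 had 13.31, with 18.6 and 21 normalized reads in the quadrant seed coat and 2798 and 2819 at late bent, and 332 and 63.5 and then 2.82 and 0 in the embryo. Lcu.2RBY.1g038310 had 12.60, Lcu.2RBY.4g043570 had 11.73, Lcu.2RBY.5g068760 had 11.66 and Lcu.2RBY.4g076920 had 11.58. Lcu.2RBY.6g068850 had 11.14 and Lcu.2RBY.4g070680 had 10.72. In Lcu.2RBY.4g070680 the quadrant embryo libraries were far apart, with 307 and 73.2 normalized reads.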

How the results depend on the processing

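Of 247 counts of genes recomputed under alternatives that leave no single replicate out, 242 stayed within 1.5 times the reported count. The seed coat genes that fell from quadrant to late bent were 1 with a pseudocount of 0.5 and 1 with no filter. The whole seed genes higher at the zygote stage than at maturity were 20 with TMM scaling. Those higher at the zygote stage than in the ovule were 8 with quantile scaling, and those higher in the ovule were 4 with TMM scaling. The cause was not tested.

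Leaving out each replicate gave 69 to 84 embryo genes at quadrant and 2 to 3 seed coat genes. It gave 40 to 51 and 2 to 7 at globular, 29 to 34 and 10 to 20 at heart, 15 to 23 and 30 to 44 at torpedo, 11 to 13 and 39 to 45 at early bent, and 0 to 2 and 70 to 77 at late bent. From quadrant to late bent it gave 66 to 74 genes that fell and 3 to 4 that rose in the embryo, 65 to 69 that rose and 1 that fell in the seed coat, and 88 to 96 for the interaction. It gave 31 to 34 and 8 to 14 genes for the whole seed at maturity and zygote, and 0 to 4 and 0 to 2 for zygote and ovule. The lone sample is then assumed to vary like the other groups. Choosing the genes again under other settings kept at least 81 of the 100.

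Replicates 1 and 2 are the lower and the higher library number of a group in the labels. Deviations of same-numbered libraries correlated between -0.051 and 0.208. These values cannot decide whether such libraries came from the same seeds, and the main test did not pair them. With a replicate block the counts were 43 in place of 42 seed coat genes at torpedo, 75 in place of 76 embryo falls, and as reported for all others. Of 570 recomputed interaction values of single genes 559 kept their direction and call, and none reversed. With 2 libraries per group, counts of a few genes can turn on 1 library, as those above for late bent embryo and ovule did.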
